A study of Mus musculus with 4 samples.

Results

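The genes of glycolysis and of the response to low oxygen were compared between Met-low and Met-high cells of the mouse melanoma line B16-F10. The module was a list of 40 genes that share known functions. Measured signals enter its rule only in the choice of probe and in a filter. The list held 17 enzymes of glycolysis and lactate formation, 4 transporters of glucose and lactate and 3 regulators of glycolytic flux. It also held 6 genes of the hypoxia-inducible factors (HIFs) and of oxygen sensing, and 10 hypoxia targets. Of the 40 genes, 37 passed the filter, which asks for signal well above background in both samples of either population. In all, 11957 genes passed it among the 20832 that could be named. *Car12*, *Adm* and *Mxi1*, all hypoxia targets, did not pass, because their brightest probe was not well above background on any of the 4 arrays. Every level below is the log2 of a probe's background-corrected Cy3 signal after division by the 75th percentile of the array, and every difference is the Met-high mean minus the Met-low mean on that scale. Levels of different probes cannot be set against each other.

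B16-F10 is an established mouse melanoma cell line, and both populations came from cultures of it in RPMI medium with heat-inactivated fetal bovine serum. The cells were stained for the receptor Met at the cell surface, separated by flow sorting into a Met-low and a Met-high population, and grown apart for 3 days before total RNA was taken, without any treatment with low oxygen being named. Each population had 2 arrays, 1 for each of 2 separate RNA samples. Each p-value rests on the spread between the 2 preparations, pooled over both populations and drawn towards the spread seen over all genes. All 4 arrays lay on 1 slide read in 1 scan, with the Met-low samples on its first positions and the Met-high samples on the rest, so slide position and population cannot be told apart.

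In glycolysis, cells take up glucose, split it into pyruvate and gain ATP without oxygen, and tumour cells often turn much of the pyruvate into lactate and export it. The HIF transcription factors couple this pathway to oxygen. With oxygen present, the prolyl hydroxylases encoded by *Egln* genes mark the HIF alpha subunits, and the von Hippel-Lindau protein VHL then directs them to destruction. Without oxygen, HIF alpha subunits pair with ARNT and switch on genes for glucose uptake, glycolytic enzymes and cell survival. HIF levels are mainly set at the protein, which these arrays do not measure.

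Across all genes tested, the adjusted p of limma was under 0.05 for 227 genes with the higher level in Met-high cells, 1.9% of those tested, and for 454 with the higher level in Met-low cells, 3.8%. The median difference over all genes was 0.10, and 59.5% of genes had the higher mean in Met-high cells. This offset depends on how arrays are scaled: with the 75th percentile taken over probes detected on all arrays, the median became -0.05, and the share of calls that were higher in Met-high cells went from 33.3% to 19.1%. The differences of the genes below are therefore best read against the median of all genes. The 7 melanocyte markers examined (*Mlana*, *Pmel*, *Tyr*, *Tyrp1*, *Dct*, *Mitf* and *Sox10*) were well above background on all 4 arrays, and their differences ran from -0.14 to 0.53 with no adjusted p under 0.05. Of 14 markers of blood, endothelial, fibroblast and epithelial cells, *Cd68* had no named probe and could not be measured. The filter was passed by 4 (*Cd3e*, *Itgam*, *Pecam1* and *Krt14*), of which *Pecam1* and *Krt14* passed only through the Met-high arrays. None of the 4 passed the test, while *Sox10* (0.53) and *Itgam* (-0.65) had an unadjusted p under 0.05. *Met*, the gene of the receptor used for sorting, measured -0.26 and -0.89 in the Met-low samples and 1.03 and -0.43 in the Met-high samples. Its populations overlapped, and the difference was 0.87 (SE 0.51, adjusted p = 0.333). Leaving out Met-high replicate 2 gave 1.61, and leaving out Met-high replicate 1 gave 0.14. The sort was thus not clearly visible in the *Met* RNA of these arrays after culture, which was read by 1 probe. By quantitative RT-PCR after 3 days of culture, the paper on these data reports far more *Met* mRNA in Met-high cells.

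Within the module, few genes passed the test. *Aldoc*, an aldolase of glycolysis, was higher in Met-high cells, while *Ddit4*, a stress-induced inhibitor of mTORC1, and *Egln3*, a HIF prolyl hydroxylase, were higher in Met-low cells. These 3 genes had an adjusted p under 0.05 in limma's fit over all genes. *Egln3* was not well above background on either Met-high array and had passed the filter through the Met-low arrays, so the count that can be read against all genes is 2 of the 36 members well above background on all 4 arrays (5.56%). Over all genes, 5.70% passed the test in either direction, which is near that share. *Aldoc* and *Ddit4* were also the members, of these 36, whose means differed by more than 2-fold, while 2.43% of all genes were over 2-fold higher in Met-high cells and 5.31% in Met-low cells. Without the filter on dim probes, when all 20832 named genes were tested, the adjusted p of each of the 3 genes was above the threshold. At an unadjusted p under 0.05, 6 of the 37 members were higher in Met-high cells (16.2%, against 14.3% of all genes) and 4 in Met-low cells (10.8%, against 11.9% of all genes). Without *Egln3*, 3 of the 36 were higher in Met-low cells (8.33%).

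The other members showed smaller differences that did not pass the test. Both Met-high values exceeded both Met-low values for 22 of the 37 genes (59.5%), against 35.7% of all genes. The reverse held for 5 members (13.5%), against 22.6% of all genes, and the arrays of the populations overlapped for the other 10. Without *Egln3*, the reverse held for 4 of 36 (11.1%). The median difference was 0.20 for the members and 0.10 for all genes, and the differences of the members ranged from -1.55 (*Ddit4*) to 1.41 (*Aldoc*). By mean alone 29 members were higher in Met-high cells and 8 in Met-low cells, which became 25 and 12 with the 75th percentile taken over probes detected on all arrays. These counts take *Epas1*, whose probes disagree, by its brightest probe, and without it 21 of 36 were separate with Met-high higher and 28 had the higher mean there. In RNA from bulk samples, a lower level in every cell and a smaller number of cells with the RNA cannot be told apart.

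**Figure D1:**
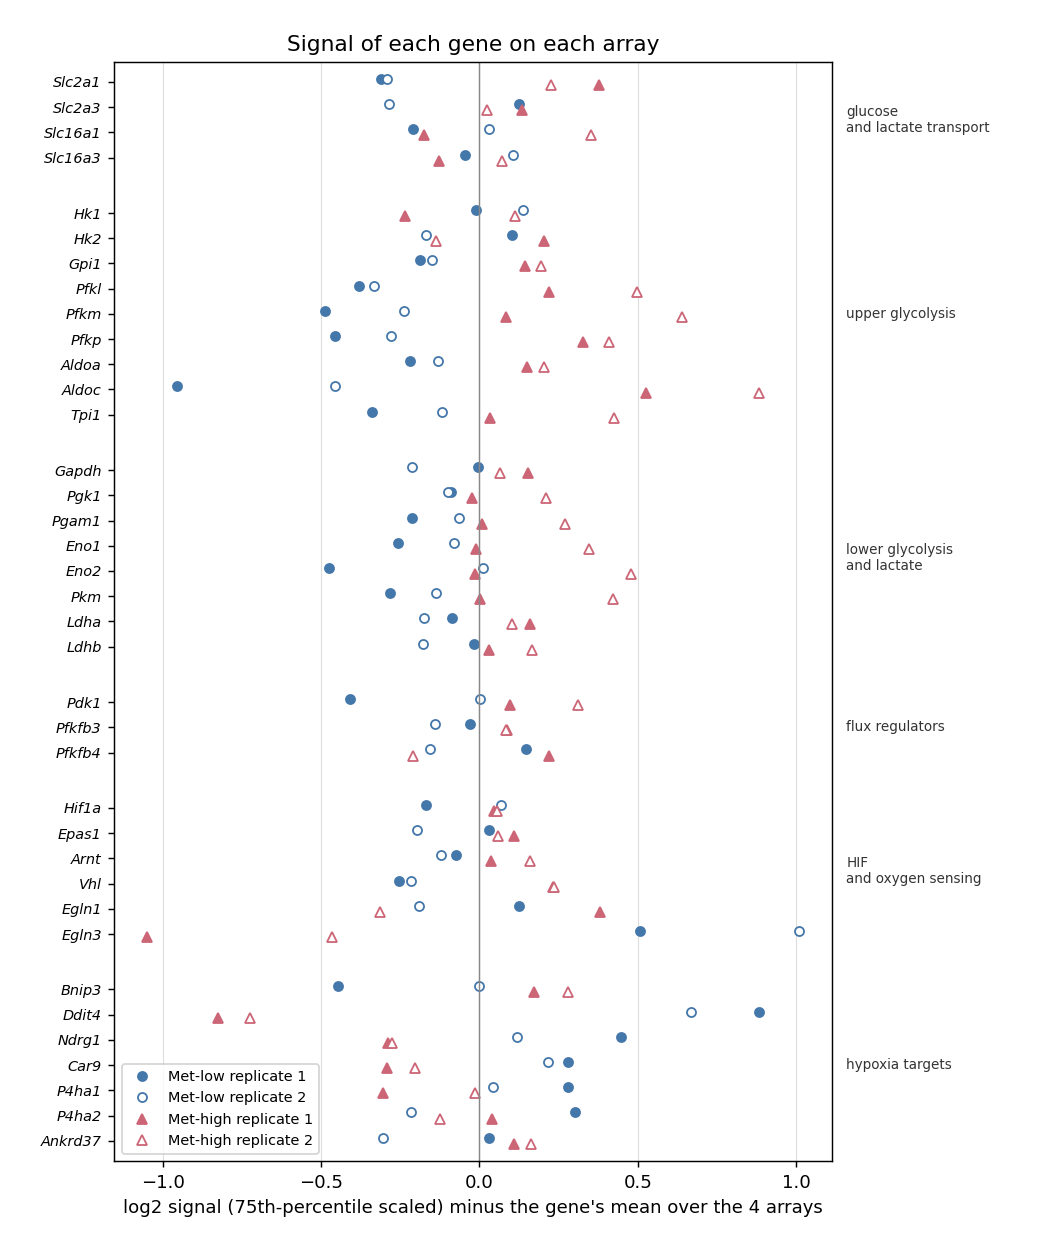
Level of each of the 37 genes on each of the 4 arrays, as log2 signal scaled to the 75th percentile minus the mean of the gene over the arrays, with genes grouped by role. Circles are Met-low and triangles Met-high samples, filled for replicate 1 and open for replicate 2. *Aldoc* has both Met-high arrays far to the right, *Ddit4* and *Egln3* have them far to the left, and for 22 genes both triangles lie to the right of both circles.

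HIF binds DNA at hypoxia response elements, whose core is the word ACGTG. The related core GCGTG was searched for as well. Both strands were read, and on the opposite strand the former core appears as CACGT while the latter core appears there as CACGC. The 250 bases before the RefSeq start of *Ddit4*, *Egln3* and *Aldoc*, and of *Car9*, widely used as a marker of HIF activity, are printed to show where these words stand. Sequences are from RefSeq on the mouse build GRCm38.p6, read 5′ to 3′ in the direction of the gene, with each match in capitals. *Aldoc* has more than 1 start and both windows are given.

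Ddit4, chr10:59951771-59952020, minus strand: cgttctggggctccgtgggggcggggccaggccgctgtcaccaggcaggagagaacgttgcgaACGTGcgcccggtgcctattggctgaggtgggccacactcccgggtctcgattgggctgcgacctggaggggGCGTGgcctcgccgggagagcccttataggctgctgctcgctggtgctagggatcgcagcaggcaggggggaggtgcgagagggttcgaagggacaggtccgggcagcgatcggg

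Egln3, chr12:54203875-54204124, minus strand: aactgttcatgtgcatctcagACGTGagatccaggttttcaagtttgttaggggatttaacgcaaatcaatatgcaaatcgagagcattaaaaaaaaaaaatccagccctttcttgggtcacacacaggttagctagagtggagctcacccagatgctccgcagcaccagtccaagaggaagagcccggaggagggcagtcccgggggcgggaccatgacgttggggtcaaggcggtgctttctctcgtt

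Car9, chr4:43506776-43507025, plus strand: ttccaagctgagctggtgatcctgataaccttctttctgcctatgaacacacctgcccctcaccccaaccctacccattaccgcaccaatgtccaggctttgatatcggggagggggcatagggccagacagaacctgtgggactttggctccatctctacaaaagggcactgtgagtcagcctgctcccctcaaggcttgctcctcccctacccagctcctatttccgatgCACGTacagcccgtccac

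Aldoc, chr11:78322823-78323072, plus strand: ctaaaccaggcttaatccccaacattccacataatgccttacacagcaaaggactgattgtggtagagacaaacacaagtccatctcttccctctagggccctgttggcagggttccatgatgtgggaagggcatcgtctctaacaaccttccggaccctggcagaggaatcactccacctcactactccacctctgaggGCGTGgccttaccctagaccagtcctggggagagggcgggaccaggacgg

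Aldoc, chr11:78323948-78324197, plus strand: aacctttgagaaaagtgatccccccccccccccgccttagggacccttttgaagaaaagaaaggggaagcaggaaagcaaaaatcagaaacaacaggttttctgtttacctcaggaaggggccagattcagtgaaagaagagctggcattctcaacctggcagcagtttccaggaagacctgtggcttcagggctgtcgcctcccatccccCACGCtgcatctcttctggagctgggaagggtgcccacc

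The *Ddit4* window holds 2 matches, which begin 187 and 115 bases before the start. The match of *Egln3* begins 229 bases, and that of *Car9* 18 bases, before the start, while those of the 2 *Aldoc* windows begin 50 and 39 bases before theirs. The module had 52 promoter windows, which belong to 37 of the 40 listed genes (all but *Slc2a3*, *Epas1* and *Ndrg1*). These 37 include *Car12*, *Adm* and *Mxi1*, which were not tested. Of the 52 windows, 41 (78.8%), from 32 genes, held at least 1 match. The same was true of 38.6% of all 32851 windows and of 55.2% of the 12284 windows of genes tested here. Glycolytic enzymes had the word in 21 of 28 windows and hypoxia targets in 9 of 11. The word is short, ACGTG also lies within the E-box CACGTG that other factors bind, and a match describes the letters in the window without showing that HIF binds there.

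Among the genes of oxygen sensing, *Egln3* had an adjusted p under the threshold, with the higher level in Met-low cells. Its enzyme hydroxylates HIF alpha subunits, and the gene is itself a well-known HIF target. *Egln3* (NM_028133) measured -4.46 and -3.95 in Met-low replicates 1 and 2, and -6.01 and -5.43 in Met-high replicates 1 and 2. The lower Met-low value exceeded the higher Met-high value. Neither Met-high value was well above background, so the difference is not exact. With each Met-high value set no lower than the dimmest signal well above background on its array, the Met-low level was 1.86-fold higher. That signal is not a level above which every probe is detected, so the figure is nominal and not a firm lower bound. *Egln3* was called in limma's fit of the measured values (adjusted p = 0.0461). This call was lost with normexp background correction (adjusted p = 0.218), with quantile normalization (0.0809) and without Met-low replicate 2 (0.057).

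The HIF subunits themselves differed little. *Hif1a*, the alpha subunit of HIF-1, measured 0.95 and 1.19 in Met-low and 1.17 and 1.18 in Met-high cells, with overlapping populations and a difference of 0.10 (SE 0.17), equal to the median of all genes. *Arnt*, their shared partner, differed by 0.20 (SE 0.16) with its arrays separated. *Epas1*, which encodes HIF-2 alpha, differed by 0.17 (SE 0.17) on its brightest probe, with the Met-high arrays above the Met-low arrays, while on its other probe both Met-low values were the higher, with a difference of -0.79 (adjusted p = 0.137 in a fit of each probe). *Epas1* was the single member of 10 with several probes past the filter whose probes gave opposite directions, so its direction is uncertain.

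*Vhl*, whose protein recognises hydroxylated HIF alpha, measured 1.51 and 1.55 in Met-low cells and 2.00 on both Met-high arrays. The replicates were close and the populations separate, with a difference of 0.47 (SE 0.15), and it did not pass the test (adjusted p = 0.138). *Egln1*, the main HIF prolyl hydroxylase in most cells, overlapped between the populations at a difference of 0.07 (SE 0.28). *Egln2*, the remaining enzyme of that family and not a member, measured 3.97 and 3.86 in Met-low and 4.73 and 4.57 in Met-high cells, a difference of 0.73 (SE 0.16, adjusted p = 0.066).

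Among the transporters, *Slc2a1*, which encodes the glucose carrier GLUT1, stood out. It measured 1.31 and 1.33 in Met-low cells and 2.00 and 1.85 in Met-high cells. The populations were separate, and the difference of 0.60 (SE 0.16), or 1.52-fold, missed the threshold (adjusted p = 0.0948). The other 3 transporters overlapped: *Slc2a3* (GLUT3) differed by 0.16, and the lactate carriers *Slc16a1* and *Slc16a3* by 0.18 and -0.06, each with an adjusted p of at least 0.644. *Slc2a4*, the insulin-responsive carrier GLUT4 and not a member, was called. It measured -4.47 and -4.39 in Met-low and -2.80 and -3.17 in Met-high cells, a difference of 1.45 (SE 0.19, adjusted p = 0.0207). It was well above background on 3 of the 4 arrays, with Met-low replicate 1 the exception. *Slc2a4* thus passed the filter only through the Met-high arrays, and its difference is not exact. The *Slc2a4* difference fell to 0.81 (adjusted p = 0.0567) with normexp background correction.

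For most glycolytic enzymes both Met-high arrays were the brighter. All 17 passed the filter, both Met-high values were the higher for 14 of them (82.4%, against 35.7% of all genes), and 0 had the reverse (against 22.6% of all genes). Their median difference was 0.34, against 0.10 for all genes, and ranged over the alternatives from 0.19, with the 75th percentile over detected probes, to 0.41, without Met-high replicate 1. With each gene centred on its mean, the median of the 17 was -0.22 and -0.15 in Met-low replicates 1 and 2, and 0.08 and 0.27 in Met-high replicates 1 and 2, while that of all genes stayed between -0.04 and 0.06. The enzymes' medians thus differed between the Met-high replicates by more than they did between the Met-low replicates. By single genes, the test was passed by 1 of the 17 (5.88%, against 5.70% of all genes), and 4 had an unadjusted p under 0.05. The means of 16 enzymes were higher in Met-high cells, with *Hk1* the exception, and *Hk2* turned to the other direction (-0.08) with the 75th percentile over detected probes.

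The called enzyme was *Aldoc*, which encodes aldolase C, best known from brain and 1 of the enzymes that cleave fructose-1,6-bisphosphate. *Aldoc* (NM_009657) measured 0.62 and 1.11 in Met-low replicates 1 and 2, and 2.09 and 2.45 in Met-high replicates 1 and 2. Its lowest Met-high value was above its highest Met-low value. The means were 0.86 ± 0.35 and 2.27 ± 0.25 (SD, n = 2 each), a difference of 1.41 (SE 0.24), or 2.65-fold, with an adjusted p of 0.0388 (limma). The call was lost without Met-low replicate 1 (difference 1.16, adjusted p = 0.0606) and by a narrow margin with quantile normalization (adjusted p = 0.0503). *Aldoa*, the widely expressed aldolase, measured 7.90 and 7.99 in Met-low and 8.27 and 8.32 in Met-high cells, a separate but much smaller difference of 0.35 (SE 0.15, adjusted p = 0.225).

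Phosphofructokinase commits sugar to glycolysis, and its 3 genes were separate between the populations. *Pfkl*, the liver type, measured -0.61 and -0.56 in Met-low and -0.01 and 0.27 in Met-high cells. *Pfkm*, the muscle type, measured 1.14 and 1.39 in Met-low and 1.71 and 2.27 in Met-high cells. *Pfkp*, the platelet type, measured 0.12 and 0.30 in Met-low and 0.91 and 0.99 in Met-high cells. Their differences were 0.72, 0.72 and 0.73 with adjusted p-values of 0.0807, 0.144 and 0.0674, so that none passed the test. The *Pfkm* difference was 0.45 without Met-high replicate 2, and a dimmer second probe of *Pfkp* overlapped, at 0.28.

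At the entry to the pathway, the hexokinases, which phosphorylate glucose, did not separate the populations. *Hk1*, the enzyme whose mean was higher in Met-low cells, measured 3.38 and 3.53 there and 3.16 and 3.50 in Met-high cells (difference -0.13, SE 0.19). *Hk2*, a known HIF target, differed by 0.07 (SE 0.20). *Gpi1*, which makes fructose-6-phosphate, differed by 0.34 (SE 0.15) on its brightest probe and by 0.34 to 0.41 over its 3 probes. *Tpi1*, which interconverts the triose phosphates, differed by 0.46 (SE 0.20).

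The lower pathway showed small differences in a narrow range. All 8 genes, from *Gapdh* to the lactate dehydrogenases, had the higher mean in Met-high cells, by 0.19 to 0.46, and 7 were separate, but 0 passed limma's test and 0 had an unadjusted p under 0.05. *Gapdh*, often used as a reference gene, measured 8.57 and 8.37 in Met-low and 8.73 and 8.64 in Met-high cells, a difference of 0.22 (SE 0.17, adjusted p = 0.448). Its 7 probes all had the higher mean in Met-high cells, by 0.12 to 0.28. *Eno2*, the neuronal enolase and the gene of this role with the largest difference, measured -1.88 and -1.40 in Met-low and -1.43 and -0.93 in Met-high cells, and at 0.46 (SE 0.26) it was also the overlapping one. *Pkm*, which makes pyruvate, differed by 0.42 (SE 0.20), and *Ldha* and *Ldhb*, which exchange pyruvate and lactate, by 0.26 and 0.20.

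The 3 regulators of flux did not pass limma's test, and 0 of them had an unadjusted p under 0.05. *Pdk1*, a kinase that holds pyruvate back from mitochondria, measured -3.29 and -2.88 in Met-low and -2.79 and -2.57 in Met-high cells, which did not overlap (difference 0.41, SE 0.21, adjusted p = 0.279). *Pfkfb3*, which makes the activator of phosphofructokinase, measured 0.87 and 0.76 in Met-low and 0.98 on both Met-high arrays. Its difference of 0.17 (SE 0.16) turned to -0.12 when all probes of the gene were averaged. *Pfkfb4*, its relative, overlapped at 0.01 (SE 0.22).

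**Figure D2:**
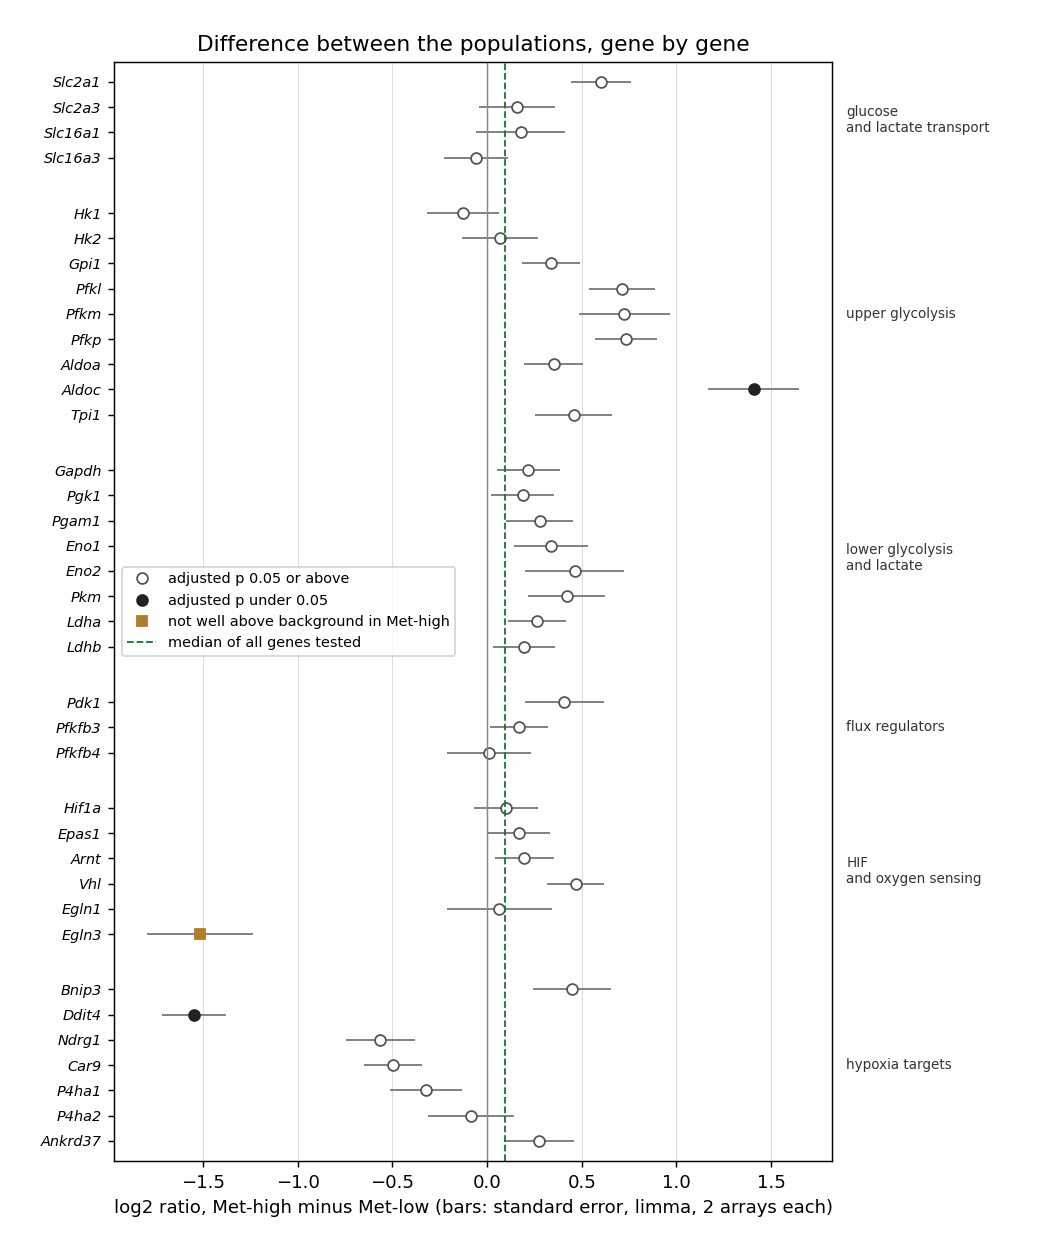
Difference between the populations for each of the 37 genes, as Met-high minus Met-low log2 signal, with bars for the standard error of limma (2 arrays in each population) and a dashed line at the median of all genes tested, 0.10. Filled circles passed limma's test, *Aldoc* at 1.41 and *Ddit4* at -1.55. The square marks *Egln3*, whose Met-high signals did not clear the background, so its difference is not exact. Of the 17 enzymes, 15 lie to the right of the dashed line.

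Of the 7 hypoxia targets that passed the filter, 4 had both Met-low values above the Met-high values (*Ddit4*, *Ndrg1*, *Car9* and *P4ha1*; 57.1%, against 22.6% of all genes), 2 had the reverse (*Bnip3* and *Ankrd37*; 28.6%, against 35.7%), and *P4ha2* overlapped. Their median difference was -0.32. It stayed below 0 under every alternative, but moved to -0.19 with normexp background correction, to -0.17 without Met-high replicate 1, and to -0.20 without Met-low replicate 1. With each gene centred on its mean, the median of the 7 was 0.28 and 0.04 in Met-low replicates 1 and 2, and -0.29 and -0.13 in Met-high replicates 1 and 2. Met-low replicate 2 and Met-high replicate 2 were thus the closer pair. No test of the difference between these targets and the enzymes was made.

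*Ddit4* was the target that passed the test. Its protein, also called REDD1, restrains the growth kinase complex mTORC1 under low oxygen, glucocorticoids, energy stress and DNA damage. *Ddit4* (NM_029083) measured 3.33 and 3.12 in Met-low replicates 1 and 2, and 1.63 and 1.73 in Met-high replicates 1 and 2. The populations were far apart relative to their replicates. The means were 3.22 ± 0.15 and 1.68 ± 0.07 (SD, n = 2 each), a difference of -1.55 (SE 0.17), or 2.93-fold in favour of Met-low (adjusted p = 0.0136, limma). Leaving out any 1 array kept the call, with differences between -1.66 and -1.44.

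*Ndrg1*, a stress-responsive gene linked to suppression of metastasis, measured 2.58 and 2.25 in Met-low and 1.84 and 1.85 in Met-high cells (difference -0.57, SE 0.18, adjusted p = 0.137). *Car9*, a carbonic anhydrase strongly driven by HIF-1, measured 0.15 and 0.09 in Met-low and -0.42 and -0.33 in Met-high cells (difference -0.50, SE 0.15, adjusted p = 0.130). Both genes were separate between the populations and neither passed the test. *P4ha1*, a collagen prolyl hydroxylase, differed by -0.32 (SE 0.19), and its relative *P4ha2* by -0.09 (SE 0.23). *Bnip3*, a mitophagy receptor, measured 0.61 and 1.05 in Met-low and 1.23 and 1.34 in Met-high cells, separate with Met-high higher (difference 0.45, SE 0.21, adjusted p = 0.240). The *Bnip3* difference was 1.01 with the mean of all its probes and 0.23 without Met-low replicate 1. *Ankrd37* differed by 0.27 (SE 0.18).

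A further 61 genes of the same pathways, outside the 40, were examined by role, and 46 passed the filter. Their median difference was 0.02, both Met-high values were the higher for 13 genes (28.3%, against 35.7% of all genes) and both Met-low values for 15 (32.6%, against 22.6%). Limma's test was passed by 2 of the 46 (4.35%, against 5.70% of all genes), *Slc2a4*, described above, and *Vegfa*. *Slc2a4* had passed the filter only through the Met-high arrays, and *Fbp1*, among the 15, only through the Met-low arrays. With the filter on all arrays, 0 of the further genes were called higher in Met-high cells and 1 in Met-low cells. *Vegfa*, the vascular growth factor and a classic HIF target, measured -0.09 and -0.12 in Met-low replicates 1 and 2, and -0.95 and -1.15 in Met-high replicates 1 and 2. The populations were separate, with a difference of -0.95 (SE 0.16, adjusted p = 0.0396), or 1.93-fold higher in Met-low cells. That call was lost on leaving out Met-low replicate 1 (adjusted p = 0.107), Met-low replicate 2 (0.087) or Met-high replicate 2 (0.111), and when all probes of the gene were averaged (difference -0.84, adjusted p = 0.140).

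The 18 further hypoxia targets that passed, *Vegfa* among them, had 8 genes with both Met-low arrays higher (44.4%, against 22.6% of all genes) and 4 with both Met-high arrays higher (22.2%, against 35.7%). Their median was -0.11, and -0.26 both with quantile normalization and with the percentile over detected probes. *Bnip3l*, a mitophagy receptor like *Bnip3*, differed the other way from it, by -0.56 (SE 0.20, adjusted p = 0.158). *Hilpda*, a lipid droplet protein, differed by -0.41 (SE 0.16, adjusted p = 0.191). On the opposite side were *Ero1a*, an oxidase of protein folding, at 0.68 (adjusted p = 0.110), *Cited2*, a HIF competitor for its coactivators, at 0.61 (adjusted p = 0.121), and the glycogen synthase *Gys1* at 0.52 (adjusted p = 0.138). Over both lists of hypoxia targets, 12 of 25 genes were separate with Met-low higher (22.6% of all genes) and 6 with Met-high higher (35.7% of all genes), at a median of -0.13. Each gene was listed under a single role. Genes of glucose uptake and glycolytic enzymes, which HIF also switches on, and the HIF targets *Hk2* and *Egln3* were counted under other roles. The counts therefore do not describe HIF targets as a whole.

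**Figure D3:**
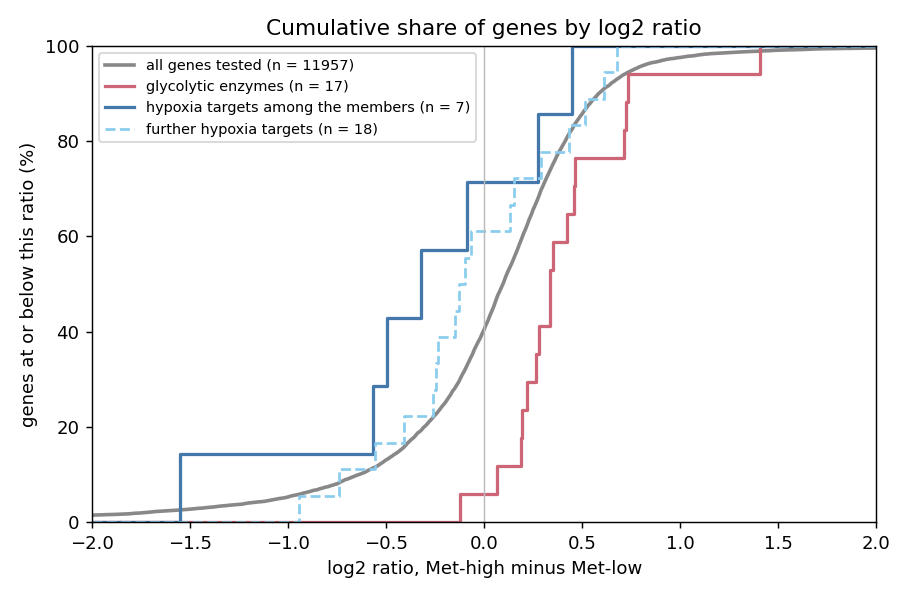
Cumulative share of genes (percent) by difference between the populations (Met-high minus Met-low, log2), for all 11957 genes tested, the 17 glycolytic enzymes, the 7 hypoxia targets of the module and 18 further hypoxia targets. The curve of the enzymes lies to the right of that of all genes over most of its length (medians 0.34 and 0.10), and those of the targets lie mostly to its left (medians -0.32 and -0.11). Enzymes that HIF switches on are counted with the enzymes. The order of the curves is a description of these lists and was not tested.

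Of 21 further genes of glycolysis, 12 passed, with a median of 0.26. Among them, 6 of 12 (against 35.7% of all genes) were separate with Met-high higher and 1 (8.33%, against 22.6%) with Met-low higher. The 6 include *Slc2a4*, which passed the filter only through the Met-high arrays. *Eno3*, the muscle enolase, differed by 0.70 (SE 0.22, adjusted p = 0.135) and *Bsg*, the chaperone of the lactate carriers, by 0.33 (SE 0.19, adjusted p = 0.329). The 1 separate gene with the Met-low arrays higher was *Fbp1*, whose enzyme runs the phosphofructokinase step backwards in gluconeogenesis. *Fbp1* passed the filter only through the Met-low arrays. It measured -1.06 and -1.36 in Met-low and -2.33 and -5.84 in Met-high cells, a difference of -2.87 (SE 1.09, adjusted p = 0.179). Met-high replicate 2 was not well above background, so its value and this difference are not exact, and without that array the difference was -1.12 (adjusted p = 0.0505). Leaving out Met-high replicate 1 leaves that array as the single Met-high value, with a *Fbp1* adjusted p of 7.04e-05 that rests on it.

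Of 12 genes that bring pyruvate into mitochondrial metabolism or control this step, 10 passed, with a median of -0.06 and 5 means higher in each population. Among them, 5 of 10 (against 22.6% of all genes) were separate with Met-low higher and 1 (10.0%, against 35.7%), the phosphatase *Pdp2* at 0.37, with Met-high higher. The other phosphatase listed, *Pdp1*, was separate in the opposite direction at -0.41 (SE 0.20, adjusted p = 0.260 in limma). *Mpc1* and *Mpc2*, the subunits of the mitochondrial pyruvate carrier, differed by -0.14 and -0.29, and *Dld* and *Pdhx*, of the pyruvate dehydrogenase complex, by -0.31 and -0.27, while *Pdha1* and *Dlat*, also of that complex, overlapped at 0.01 and 0.03. None of the 10 passed limma's test, and 0 had an unadjusted p under 0.05.

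**Figure D4:**
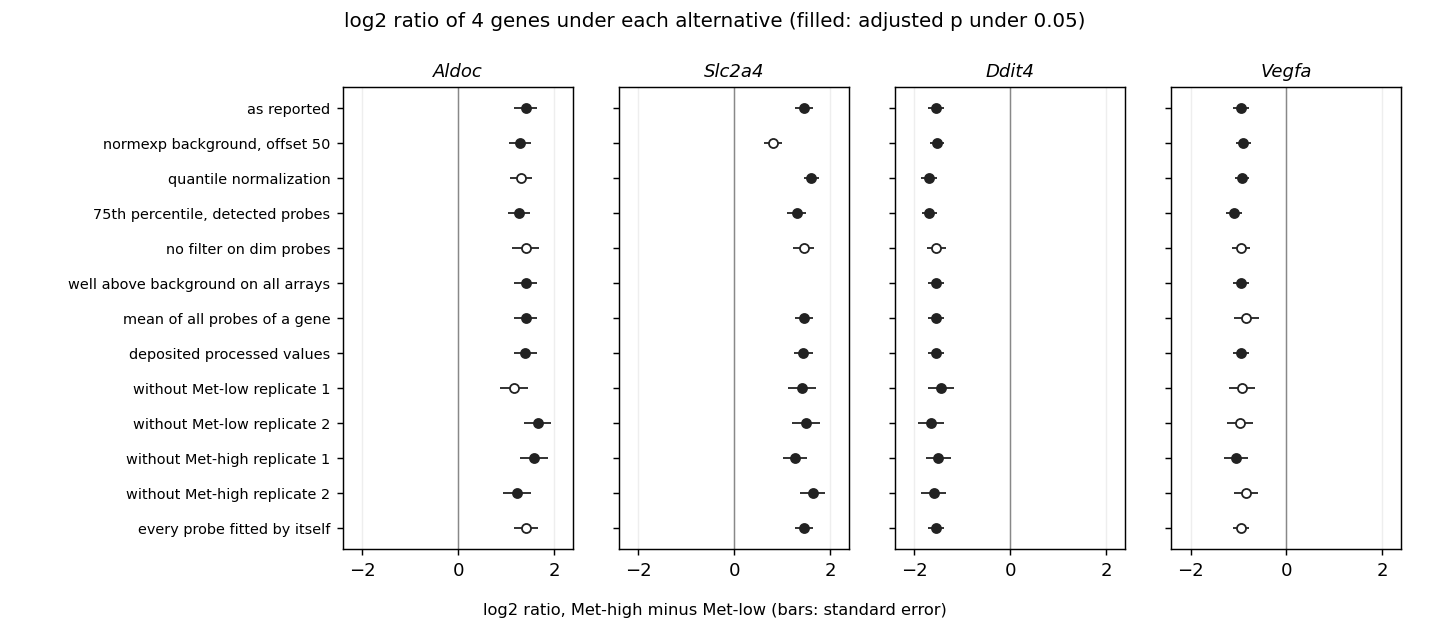
Difference between the populations (Met-high minus Met-low, log2, with standard error) under each way of processing, for *Aldoc*, *Slc2a4*, *Ddit4* and *Vegfa*, which passed limma's test, with filled points where the adjusted p was under 0.05. *Ddit4* stays between -1.69 and -1.44, while *Slc2a4* moves to 0.81 with normexp background correction. *Aldoc* and *Vegfa* are open under several alternatives, and a missing point marks a filter that the gene did not pass.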

How the data were processed

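RNA from 2 Met-low and 2 Met-high samples was hybridised to one-colour Agilent mouse arrays (Cy3). The authors deposited scanner output with a background-corrected intensity for each spot. The file headers name Feature Extraction 11.0.1.1, the labels 10.7.3.1. They also deposited log2 values, which followed the scanner intensities after scaling to the 75th percentile of each array and centring each probe on its median (93.3% to 99.8% of probes within 0.01). A Lowess step that the methods name left no visible trace in that comparison.

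Here the intensity was floored at 0.01 (0 spots), scaled to the 75th percentile of its array (858 to 1331) and taken to log2. Flagged spots (207 to 232 of 43020 in each array) were left out, 0 were saturated, and spots of a probe were averaged. Between 50.0% and 53.6% of spots were well above background. The number of arrays limits the precision. Probes were named by accession through the RefSeq table of GRCm38.p6 (27427 of 39429), and genes took their probe with the highest mean. A gene was tested where both samples of either population had it well above background. Populations were compared with lmFit and eBayes (limma 3.58.1, R 4.3.3), two-sided, adjusted by Benjamini-Hochberg over the genes tested, after the scripts were tested on simulated data. Tables and figures used Python 3.11.15 with pandas 2.3.3, numpy 2.4.6 and matplotlib 3.10.9.

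Genes named with every array were those that passed the test or the 2-fold limit and, in each role, the one with the highest mean and the one with the largest difference; others were chosen after their values were seen. The members, lists and tests were chosen with earlier results of these data known. Alternatives were normexp background correction (offset 50, on median spot signals), quantile normalization, another percentile, other filters on dim probes, the mean of all probes, every probe by itself, the deposited log2 values, each array left out and a replicate block. With 2 arrays against 2, no permutation test of a gene could reach the threshold. Columns of other samples numbered 0, and no genome of the array design's build was used, so gene positions are not given.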

Additional observations from a re-analysis of the deposited data

How the results depend on the processing

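The 13 alternatives changed the calls more than the directions. Over the 41 genes followed singly, 480 values kept their direction and side of the threshold, 18 lost a call, 11 gained one and 21, from 11 genes, reversed. Where an array was left out, the lone array was assumed to vary like the other population's. Without a filter on dim probes, limma called 0 genes higher in Met-high and 7 higher in Met-low cells, and no gene of the module (*Ddit4*, adjusted p = 0.0987), over 20832 genes tested, of which 1196 and 1463 had an unadjusted p under 0.05.

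Members called higher in Met-high cells were 1, and 0 with quantile normalization or no filter, and 0 to 1 with an array left out. Members called higher in Met-low cells were 2, and 1 with normexp, with quantile normalization or with the filter on all arrays, 0 with no filter, and 1 to 2 with an array left out. In a fit of every probe, where 523 of 19804 probes were called, *Ddit4* kept its call, and *Aldoc* (adjusted p = 0.0706), *Egln3* (0.0817) and *Vegfa* (0.0668) did not. Members over 2-fold higher in Met-high cells were 2 with the mean of probes and 1 to 2 with an array left out, and those over 2-fold higher in Met-low cells were 1 with normexp or the filter on all arrays. Of the further pathway genes, 0 were called higher in Met-high cells with no filter or the filter on all arrays (*Slc2a4* did not pass the latter), and those called higher in Met-low cells were 0 with no filter or the mean of probes and 0 to 3 with an array left out.

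Over all genes, 145 were called higher in Met-high cells with the percentile over detected probes, and 158 to 259 with an array left out. Those over 2-fold higher in Met-high cells were 290, and 126 with normexp, 657 with no filter and 172 with the filter on all arrays, while those over 2-fold higher in Met-low cells were 635, and 312 with normexp and 1398 with no filter.

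The members' median was 0.18 with quantile normalization, 0.052 with the percentile over detected probes and 0.18 to 0.26 with an array left out. The median of all genes was 0.085 with normexp, 0.067 with quantile normalization or the mean of probes, -0.049 with the percentile over detected probes, -0.093 with no filter, 0.088 with the deposited values and 0.084 to 0.11 with an array left out.

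The reversals were of differences near 0. With the percentile over detected probes, *Hk2* was -0.077, *Pfkfb4* -0.13, *Hif1a* -0.044 and *Egln1* -0.080. With the mean of probes, *Pfkfb3* was -0.12, *Pfkfb4* -0.13 and *Epas1* -0.17. *Slc16a3* was 0.10 with quantile normalization. With an array left out, *Slc2a3* ran from -0.046 to 0.36, *Slc16a1* from -0.085 to 0.44, *Slc16a3* from -0.16 to 0.040, *Hk1* from -0.30 to 0.048, *Hk2* from -0.10 to 0.24, *Pfkfb4* from -0.20 to 0.23, *Hif1a* from -0.017 to 0.22, *Egln1* from -0.28 to 0.41 and *P4ha2* from -0.34 to 0.17. The cause of these changes was not tested.

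The labels number the samples 1 and 2 in both populations but do not say that a number marks a shared preparation. Same-numbered samples deviated together (r = 0.539 over 11942 genes, in 2 pairs, which are not independent across genes). With the replicate block, limma called 8 of the 37 members higher in Met-high and 4 higher in Met-low cells. Members called with the block alone were *Slc2a1*, *Pfkl*, *Pfkm*, *Pfkp*, *Tpi1*, *Eno2* and *Vhl*, higher in Met-high cells, and *Ndrg1* and *Car9*, higher in Met-low cells. The same fit called 7 and 3 of the 46 further pathway genes, and 1968 and 1582 of all 11957 genes. Calls thus rose over all genes as well as in the module.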
